A study of Rattus norvegicus with 12 samples.

Results

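The 9 genes described here make, carry, sense or break down retinoic acid, the active form of vitamin A. They were chosen by symbol from the deposited table of read counts: Rbp4, Stra6, Rdh10, Aldh1a1, Aldh1a2, Aldh1a3, Crabp2, Rarb and Cyp26b1. Earlier results of these data were known when the 9 were chosen, so shares and medians set beside all genes are descriptions only. All 9 matched a row among the 30045 rows of the table, and all 9 passed the low-count filter, which kept 17330 genes. Messenger RNA was sequenced from cultured theca-interstitial cells, which lie in the follicle wall and stroma and make androgen, isolated from ovaries of wild-type female Sprague Dawley rats at postnatal day 30. The cells were cultured on human fibronectin in McCoys 5A medium for 48 h with LPS (lipopolysaccharide, a component of the bacterial outer membrane), with rat IL-1β (interleukin-1β, a cytokine of inflammation) or with vehicle (control). Each of the 3 groups had 4 libraries. The labels give 1 µg/ml beside LPS, after naming both agents, so the IL-1β dose is uncertain. They do not say whether the 4 libraries of a group came from separate animals or isolations, and each p-value below therefore rests on library-to-library spread alone, which may be technical.

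Retinol travels in blood bound to the protein of Rbp4 and can enter cells through the membrane receptor Stra6. Inside the cell retinol is oxidised to retinal, for which Rdh10 is a main enzyme, and retinal is oxidised irreversibly to retinoic acid by the enzymes of Aldh1a1, Aldh1a2 and Aldh1a3. Crabp2 carries retinoic acid to nuclear receptors such as that of Rarb, which bind DNA with an RXR partner, and Cyp26b1 breaks retinoic acid down. In the ovary retinoids are known to act on steroid-making cells and on the entry of germ cells into meiosis.

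Counts summed to between 25643226 and 28698783 per LPS library, between 23193408 and 26836323 per IL-1β library and between 20873934 and 32090924 per control library. Levels below are CPM, counts divided by library size scaled with TMM (a trimmed-mean normalisation), and they are compared between groups but not between genes, since transcript length was not used. Theca markers were present, though some were low in control cultures, with 12 to 18 counts of Cyp17a1 and 4 to 8 of Insl3 per library. The summed level of 7 theca markers lay between 446 and 508 CPM with LPS, between 602 and 658 CPM with IL-1β and between 206 and 237 CPM in control cultures. Most of this was Star. Without Star the others summed to 124 to 145 CPM with LPS, 203 to 233 CPM with IL-1β and 78.9 to 83.5 CPM in control. The cultures also held RNA of other cells. The 8 granulosa markers summed to 432 to 606 CPM with LPS, 645 to 853 CPM with IL-1β and 379 to 451 CPM in control. Most of this was Inha. Without Inha the others summed to 128 to 192 CPM with LPS, 178 to 264 CPM with IL-1β and 123 to 150 CPM in control. With LPS 3 of the 8 were higher and 1 lower at an adjusted p under 0.05 (50% called, beside 42.5% of all genes). With IL-1β 5 were higher and 1 lower (75% called, beside 47.7%). The 12 markers of surface epithelium and mesothelium summed to 109 to 124 CPM with LPS, 137 to 148 CPM with IL-1β and 102 to 105 CPM in control. The 9 endothelial markers summed to 239 to 318 CPM with LPS, 339 to 383 CPM with IL-1β and 157 to 185 CPM in control. The 11 macrophage markers summed to 56.7 to 63.7 CPM with LPS, 62.9 to 68.2 CPM with IL-1β and 110 to 116 CPM in control. They did not all share a direction, with 8 lower and 1 (Emr1) higher with LPS, and 7 lower and 1 (Cd163) higher with IL-1β. That is 81.8% called with LPS, beside 42.5% of all genes, and 72.7% with IL-1β, beside 47.7%. The 8 markers of smooth muscle and pericytes summed to 1848 to 2083 CPM with LPS, 1537 to 1742 CPM with IL-1β and 4718 to 5113 CPM in control. Without Tagln, the most abundant, the others summed to 947 to 1082 CPM with LPS, 836 to 968 CPM with IL-1β and 2433 to 2689 CPM in control. Of the 8, 7 were lower and 0 higher with LPS, and 6 were lower and 1 higher with IL-1β. That is 87.5% called in each comparison, beside 42.5% of all genes with LPS and 47.7% with IL-1β. The 7 markers of theca stroma did not share a direction, with 2 higher and 3 lower with LPS, and 3 higher and 3 lower with IL-1β. That is 71.4% called with LPS, beside 42.5% of all genes, and 85.7% with IL-1β, beside 47.7%. The stroma sum was 3865 to 4379 CPM with LPS, 4573 to 5093 CPM with IL-1β and 5785 to 6488 CPM in control. That sum was mostly Col1a1, a collagen gene. Without Col1a1 the other 6 summed to 1426 to 1556 CPM with LPS, 1414 to 1519 CPM with IL-1β and 1299 to 1348 CPM in control. No marker was at 0 in every library. In RNA from whole cultures, more cells of a type and more RNA per cell cannot be told apart, and the part of these shifts in the results on retinoid genes was not tested.

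With IL-1β, 7 of the 9 retinoid genes rose against control and 0 fell. The rises were 2.96-fold for Crabp2, 2.39-fold for Rbp4, 2.12-fold for Aldh1a2, 1.93-fold for Rdh10, 1.92-fold for Aldh1a1, 1.59-fold for Rarb and 1.56-fold for Stra6. Aldh1a3 and Cyp26b1 did not pass the threshold, an adjusted p under 0.05 in edgeR's quasi-likelihood test. Among all genes tested 24.7% were called higher with IL-1β and 23% lower, so changes were common throughout the table. The median log2 fold change of the 9 genes was 0.94, beside 0.0094 over all genes. In 5 of the 9, every IL-1β library lay above every control library, as did 22.8% of all genes tested (44.2% in either direction).

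With LPS, 7 of the 9 genes also rose against control and 0 fell. Aldh1a2 rose 2.06-fold, Crabp2 1.81-fold, Rarb 1.56-fold, Rdh10 1.52-fold, Rbp4 1.5-fold, Aldh1a1 1.47-fold and Aldh1a3 1.23-fold. Stra6 and Cyp26b1 did not pass the threshold. Among all genes 22.5% were called higher with LPS and 20% lower. The median log2 fold change was 0.58 over the 9 genes, beside 0.0098 over all genes. The groups did not overlap in those 7 genes, all higher with LPS, as in 20.1% of all genes tested (38.3% in either direction). Both comparisons use the same 4 control libraries, so their values for a gene are not independent of each other.

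LPS was then compared with IL-1β directly, which tests whether the stimuli left different levels. Of the 9 genes 4 were lower with LPS and 0 were higher. Crabp2 was 1.63-fold lower, Rbp4 1.60-fold lower, Aldh1a1 1.31-fold lower and Rdh10 1.27-fold lower. Among all genes 10.6% were called lower and 11.3% higher in this comparison. The median log2 difference of the 9 genes was -0.34, beside -0.0023 over all genes. LPS and IL-1β libraries did not overlap in 3 of the 9 genes (Aldh1a1, Rbp4 and Crabp2), all lower with LPS, as in 10.6% of all genes tested (21.6% in either direction).

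**Figure D1:**
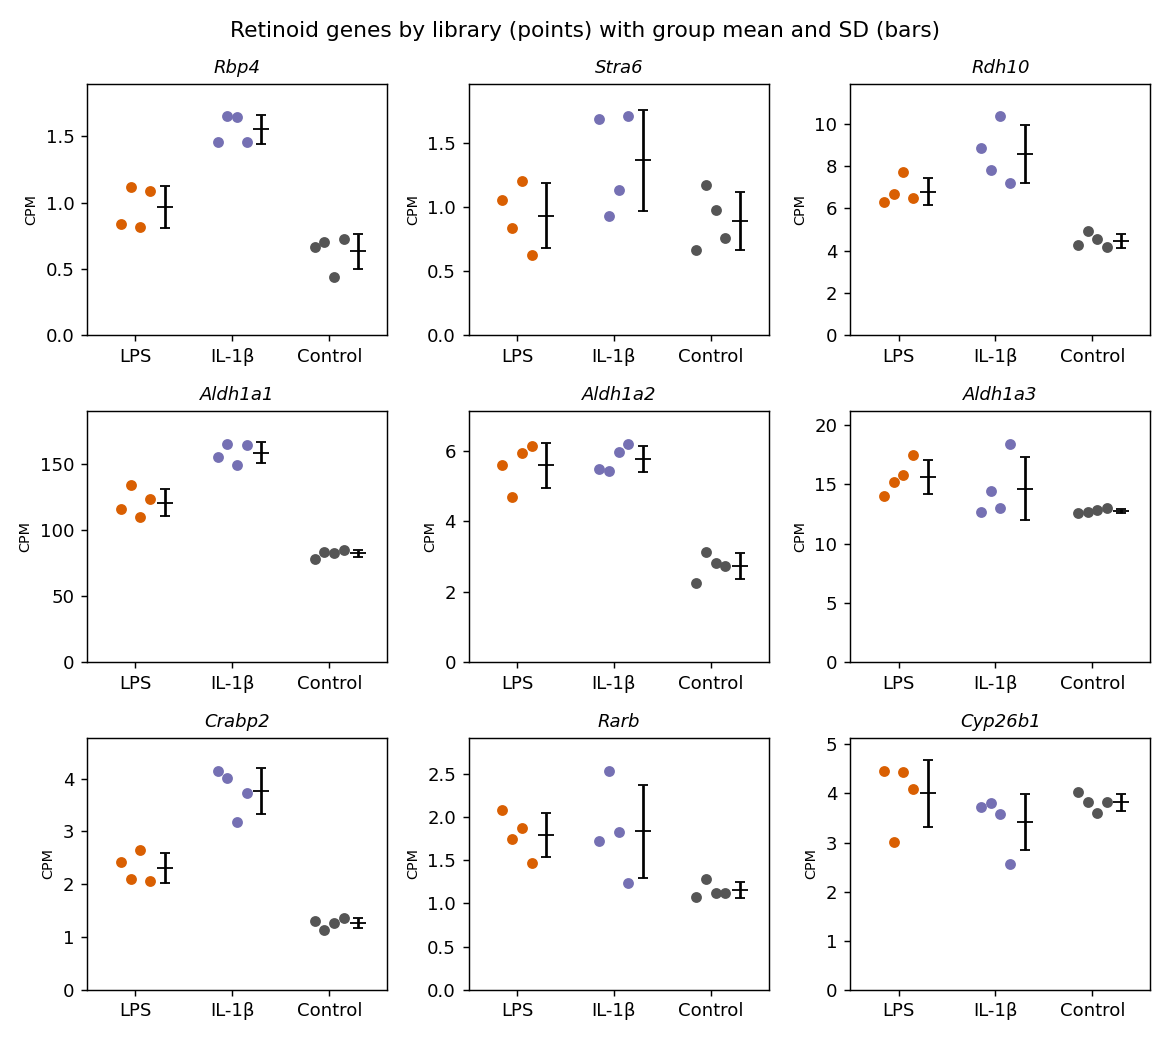
Level of each of the 9 retinoid genes in CPM (vertical axis, from 0) in the 4 libraries of the LPS, IL-1β and control groups. Points are libraries, and bars are the group mean and SD. Aldh1a1, Rbp4 and Crabp2 form 3 separate levels with IL-1β on top, Aldh1a2 is at similar levels in both treated groups, and Cyp26b1 overlaps throughout.

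Rbp4, the plasma carrier of retinol, was scarce in these cultures. It had 0.841, 1.12, 0.818 and 1.08 CPM in the LPS libraries, 1.46, 1.65, 1.65 and 1.45 CPM in the IL-1β libraries, and 0.666, 0.703, 0.439 and 0.724 CPM in the control libraries. The 3 groups did not overlap, with IL-1β highest and control lowest. These levels rest on 21 to 32 counts per LPS library, 34 to 45 per IL-1β library and 9 to 22 per control library. The log2 fold change was 1.26 ± 0.20 for IL-1β against control (SE, 4 libraries per group throughout; adjusted p = 7.06e-06, edgeR). For LPS against control it was 0.58 ± 0.22 (adjusted p = 0.0311). That call was lost with DESeq2's test (0.59, adjusted p = 0.0953), without a low-count filter (0.58, adjusted p = 0.0638), and without Control replicate 1 (0.60), Control replicate 3 (0.47), LPS replicate 2 (0.50) or LPS replicate 4 (0.52). LPS was lower than IL-1β by a log2 difference of -0.68 ± 0.19 (adjusted p = 0.00915).

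Stra6, the membrane receptor for the Rbp4 carrier, was as thinly covered, with 18 to 44 counts in any library. It had 1.06, 0.840, 1.21 and 0.630 CPM with LPS, 1.69, 0.930, 1.13 and 1.71 CPM with IL-1β, and 0.666, 1.17, 0.976 and 0.757 CPM in control. IL-1β replicates 1 and 4 stood above all other libraries, while IL-1β replicates 2 and 3 lay within the range of control. The IL-1β rise of 0.64 ± 0.24 (adjusted p = 0.0294, edgeR) was lost with DESeq2 (0.62, adjusted p = 0.0772) and without Control replicate 1 (0.51), Control replicate 4 (0.57), IL-1β replicate 1 (0.51) or IL-1β replicate 4 (0.52). LPS against control gave 0.08 ± 0.25, with a 95% interval of -0.44 to 0.60 that includes falls and rises. LPS against IL-1β stood at -0.55 ± 0.24 (adjusted p = 0.0959), and passed the threshold without IL-1β replicate 2 (-0.69, adjusted p = 0.0463).

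Rdh10 encodes a retinol dehydrogenase of the endoplasmic reticulum that makes retinal. It had 6.29, 6.68, 7.72 and 6.47 CPM with LPS, 8.87, 7.82, 10.35 and 7.22 CPM with IL-1β, and 4.25, 4.92, 4.54 and 4.18 CPM in control. Every treated library lay above every control library, while LPS and IL-1β overlapped. On the log2 scale the fold change was 0.95 ± 0.11 for IL-1β against control (adjusted p = 1.89e-08, edgeR) and 0.61 ± 0.11 for LPS against control (adjusted p = 4.51e-05). The difference of LPS from IL-1β was -0.34 ± 0.10 (adjusted p = 0.0132). It fell short of the threshold without IL-1β replicate 3, the highest library (-0.24, adjusted p = 0.0998).

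Aldh1a1 encodes a cytosolic retinal dehydrogenase. Its level was 116, 134, 110 and 123 CPM with LPS, 155, 165, 149 and 164 CPM with IL-1β, and 78.4, 83.7, 82.3 and 84.9 CPM in control. The mean was 121 ± 10.4 CPM with LPS, 158 ± 7.90 CPM with IL-1β and 82.3 ± 2.82 CPM in control (SD, n = 4 each), and no group overlapped another. Log2 fold changes were 0.94 ± 0.05 for IL-1β (adjusted p = 9.44e-10, edgeR) and 0.55 ± 0.05 for LPS (adjusted p = 7.31e-07). LPS differed from IL-1β by -0.39 ± 0.05 (adjusted p = 8.3e-05). Leaving out any 1 library kept each of these calls. With 1687 to 4068 counts per library it was counted more deeply than the other 8 genes.

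Aldh1a1 has a close copy in the rat genome, Aldh1a7, and the sources used here do not state how reads shared by similar genes were counted. Aldh1a7 counts were 5.67% to 6.43% of Aldh1a1 counts in the LPS libraries, 5.91% to 7.53% in the IL-1β libraries and 6.13% to 6.68% in the control libraries. The log2 fold change of Aldh1a7 was 0.94 ± 0.09 with IL-1β and 0.45 ± 0.09 with LPS, close to the values of Aldh1a1. Whether reads of the pair are mixed in the Aldh1a7 row was not tested, and the Aldh1a7 values are uncertain.

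Aldh1a2, the retinal dehydrogenase of many mesenchymal tissues of the embryo, rose to overlapping levels with both stimuli. It had 5.60, 4.69, 5.92 and 6.12 CPM with LPS, 5.49, 5.41, 5.96 and 6.20 CPM with IL-1β, and 2.25, 3.12, 2.83 and 2.73 CPM in control. Treated libraries were all above control libraries, and the treated groups overlapped. Against control the log2 fold change was 1.09 ± 0.12 for IL-1β (adjusted p = 8.19e-09, edgeR) and 1.04 ± 0.12 for LPS (adjusted p = 2.07e-08). LPS against IL-1β gave -0.05 ± 0.10, with a 95% interval of -0.26 to 0.16. Aldh1a2 is also made by mesothelium, of which Msln rose with IL-1β (3.17 ± 0.25) and with LPS (3.02 ± 0.25) while Upk3b fell (-0.76 ± 0.28 with IL-1β and -0.68 ± 0.27 with LPS). Of the 12 markers of surface epithelium and mesothelium 5 rose and 3 fell in each of these comparisons. That is 66.7% called, beside 47.7% of all genes with IL-1β and 42.5% with LPS. Wt1 was the most abundant of the 12. Without Wt1 the others summed to 49.4 to 64.9 CPM with LPS, 70.3 to 76.8 CPM with IL-1β and 53.7 to 55.0 CPM in control. The part of these markers in the Aldh1a2 rise was not tested.

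Aldh1a3, the third retinal dehydrogenase gene, had the smallest fold changes of the 3 against control. Its level was 14.04, 15.2, 15.8 and 17.4 CPM with LPS, 12.7, 14.4, 12.98 and 18.4 CPM with IL-1β, and 12.6, 12.6, 12.8 and 12.97 CPM in control. The control libraries lay close together, all LPS libraries were above them, and IL-1β replicate 4 stood apart from the other IL-1β libraries. LPS raised it by 0.29 ± 0.09 (adjusted p = 0.0161, edgeR), a call lost without LPS replicate 4 (0.24, adjusted p = 0.0564). With IL-1β the value was 0.19 ± 0.10 (adjusted p = 0.112), and it passed the threshold without IL-1β replicate 1 (0.25, adjusted p = 0.034), with library size alone (0.24, adjusted p = 0.0341), without a low-count filter (0.19, adjusted p = 0.0287) and with the replicate number as a block (0.19, adjusted p = 0.0283). Without IL-1β replicate 4 it was 0.06. LPS against IL-1β gave 0.10 ± 0.09, with a 95% interval of -0.09 to 0.30, and it was called without IL-1β replicate 4 (0.23, adjusted p = 0.0305).

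Crabp2, the carrier that hands retinoic acid to its nuclear receptors, had the highest fold change of the 9 genes with IL-1β. Its level was 2.41, 2.0997, 2.65 and 2.06 CPM with LPS, 4.15, 4.02, 3.18 and 3.72 CPM with IL-1β, and 1.30, 1.13, 1.27 and 1.35 CPM in control. The 3 groups did not overlap. Counts ran from 59 to 68 per LPS library, from 87 to 108 per IL-1β library and from 26 to 41 per control library. It rose by 1.56 ± 0.14 on the log2 scale with IL-1β (adjusted p = 4.1e-10, edgeR) and 0.86 ± 0.15 with LPS (adjusted p = 4.45e-05). The difference of LPS from IL-1β was -0.71 ± 0.13 (adjusted p = 0.000192).

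Rarb encodes retinoic acid receptor beta, and its gene is a textbook target of retinoic acid through a DR5 element, a direct repeat of the receptor's core motif with 5 bases between the repeats. It had 2.08, 1.75, 1.87 and 1.47 CPM with LPS, 1.73, 2.54, 1.83 and 1.24 CPM with IL-1β, and 1.08, 1.29, 1.12 and 1.12 CPM in control. All LPS libraries were above the control libraries. IL-1β replicate 4, at 1.24 CPM, was below Control replicate 2, at 1.29 CPM, and the other 3 IL-1β libraries were above all controls. The log2 fold change was 0.67 ± 0.19 with IL-1β (adjusted p = 0.00549, edgeR) and 0.64 ± 0.19 with LPS (adjusted p = 0.00839), on 42 to 57 counts per LPS library, 29 to 60 per IL-1β library and 23 to 34 per control library. LPS against IL-1β gave -0.03 ± 0.18, with a 95% interval of -0.40 to 0.33.

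Promoter windows of 250 bases before and 50 bases after a gene start were given by RefSeq on the rat build GRCr8 for 8 of the 9 genes (all but Rdh10). Both strands were searched for DR5, DR2 and DR1 repeats of the core motif (A or G, then G, then G or T, then TCA, with 5, 2 or 1 bases between repeats), for AGGTCA alone, which can lie within such a repeat, and for the κB motif bound by NF-κB. A window with overlapping matches counts as 1. Rarb was the only one of the 8 with any match, a single DR5 from 25 to 41 bases after the start given by RefSeq. A DR5 stood in 103 of 27457 rat promoter windows (0.375%), a DR2 in 0.16%, a DR1 in 0.251%, an AGGTCA in 15.7% and a κB motif in 7.6%. Among the 47 windows found for other retinoid pathway genes, 1 held a DR5, that of Cyp26a1, a retinoic acid hydroxylase gene, on the opposite strand from 92 to 76 bases before the start. An AGGTCA stood in 11 of these 47 windows (23.4%), a κB motif in 2 (4.26%, Ttr and Rara), and a DR2 or DR1 in 0. The Rarb and Cyp26a1 windows are shown because they hold these elements, with the DR5 in capitals. The Rarb window is chr15:11336142-11336441 and the Cyp26a1 window chr1:244883572-244883871, both on the plus strand of GRCr8, while the reads were mapped to Rnor_6.0.
Rarb: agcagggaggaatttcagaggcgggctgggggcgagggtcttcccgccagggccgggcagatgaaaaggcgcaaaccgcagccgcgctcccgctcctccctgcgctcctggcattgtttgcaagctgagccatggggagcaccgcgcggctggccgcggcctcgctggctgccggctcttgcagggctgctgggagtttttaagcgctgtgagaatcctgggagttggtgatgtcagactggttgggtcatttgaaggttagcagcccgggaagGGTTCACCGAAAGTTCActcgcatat
Cyp26a1: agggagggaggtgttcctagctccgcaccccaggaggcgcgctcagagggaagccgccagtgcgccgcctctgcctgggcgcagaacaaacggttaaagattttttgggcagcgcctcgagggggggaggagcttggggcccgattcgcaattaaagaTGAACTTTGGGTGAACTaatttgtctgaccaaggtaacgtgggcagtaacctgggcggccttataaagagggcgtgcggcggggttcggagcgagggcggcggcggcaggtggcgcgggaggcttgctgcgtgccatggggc

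Read on the strand of the motif, the Cyp26a1 element is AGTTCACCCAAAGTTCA, beside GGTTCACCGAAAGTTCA in Rarb. The genes that carry them were measured at different depths of detection. Rarb had 23 to 60 counts in every library. Cyp26a1 had 0 to 3 counts per LPS library, 0 to 2 per IL-1β library and 0 in all control libraries, and it was not tested. A count of 0 over the 110336506 control counts allows a level of up to 0.0272 CPM (3 counts over the group, counting error alone). The matches are a description of the letters and say nothing of binding in these cells.

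Cyp26b1 encodes the retinoic acid hydroxylase of many peripheral tissues. It had 4.46, 3.01, 4.44 and 4.09 CPM with LPS, 3.72, 3.80, 3.58 and 2.56 CPM with IL-1β, and 4.03, 3.82, 3.61 and 3.82 CPM in control. All groups overlapped, with IL-1β replicate 4 lowest. Its log2 fold change was -0.16 ± 0.13 with IL-1β (95% interval -0.44 to 0.11, adjusted p = 0.343, edgeR) and 0.06 ± 0.13 with LPS (-0.21 to 0.32, adjusted p = 0.757). LPS against IL-1β gave 0.22 ± 0.13 (-0.05 to 0.49, adjusted p = 0.26). On 60 to 127 counts per library, rises or falls within these intervals are not excluded.

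**Figure D2:**
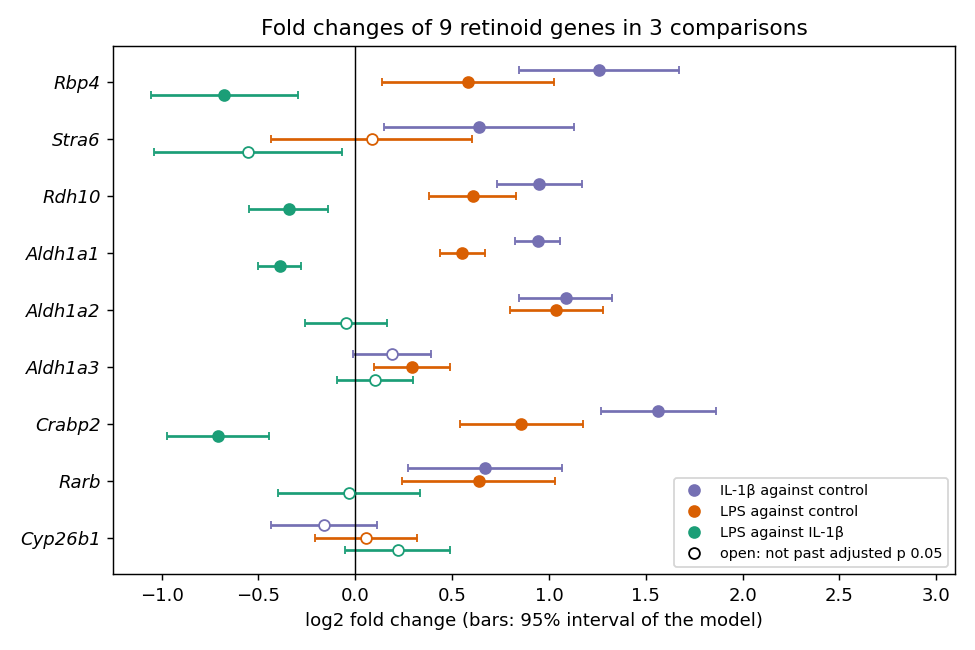
Log2 fold change (horizontal axis) of the 9 retinoid genes for IL-1β against control, LPS against control and LPS against IL-1β, with the 95% interval of the model as bars. Filled points passed an adjusted p of 0.05. Against control no filled point lies below 0, and LPS against IL-1β has 4 filled points, all below 0 (Rbp4, Rdh10, Aldh1a1 and Crabp2).

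Against control, other genes of the pathway did not share one direction. Of 67 listed, 64 matched a row and 46 passed the low-count filter, while the 18 left out had at most 12 counts in any library. With IL-1β 20 of 46 rose and 8 fell, which is 60.9% called, beside 47.7% of all genes (median log2 fold change 0.08). With LPS 13 rose and 12 fell, or 54.3% beside 42.5% of all genes (median 0.02). LPS against IL-1β had 2 higher and 14 lower, or 34.8% beside 21.9% of all genes (median -0.06). Most of these pathway calls were lower with LPS, while 11.3% of all genes were called higher and 10.6% lower.

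Among carriers, Fabp5, a fatty acid carrier that also binds retinoic acid, fell with LPS (-0.27 ± 0.05) and with IL-1β (-0.22 ± 0.05). Lrp2 and Rbp2 did not pass in either treatment. Ttr, the blood partner of the Rbp4 protein, Rbp7 and Crabp1 had at most 7 counts in any library.

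Of 11 genes tested that oxidise retinol or reduce retinal, 4 were higher and 2 lower with LPS (54.5% called, beside 42.5% of all genes), and 4 were higher and 1 lower with IL-1β (45.5%, beside 47.7% of all genes). Dhrs9, a retinol dehydrogenase gene, rose by 1.14 ± 0.34 with LPS and 1.67 ± 0.32 with IL-1β, on 12 to 21 counts per LPS library, 14 to 32 per IL-1β library and 2 to 10 per control library. Adh1, a cytosolic alcohol dehydrogenase gene whose enzyme accepts retinol, fell by 1.52 ± 0.23 on the log2 scale with LPS and by 1.87 ± 0.25 with IL-1β. It had 9 to 14 counts per LPS library, 6 to 11 per IL-1β library and 23 to 48 per control library. Dhrs3, which turns retinal back to retinol, fell with LPS (-0.31 ± 0.04, adjusted p = 2.29e-06) and stood at 0.03 ± 0.04 with IL-1β. LPS was lower than IL-1β for this gene by -0.33 ± 0.04 (adjusted p = 3.53e-06). Dhrs4 rose with LPS (0.23 ± 0.05) and with IL-1β (0.20 ± 0.05).

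Aox1, an aldehyde oxidase gene whose enzyme can turn retinal into retinoic acid, fell in both treatments. It had 53.1 ± 6.05 CPM with LPS, 54.4 ± 4.26 CPM with IL-1β and 163 ± 11.1 CPM in control. The log2 fold change was -1.61 ± 0.08 with LPS and -1.58 ± 0.09 with IL-1β (adjusted p = 4.98e-08 with LPS and 4.93e-08 with IL-1β, edgeR). Among genes of ester storage and carotene cleavage, Lipe, a lipase gene, rose with LPS (0.45 ± 0.08) and with IL-1β (0.72 ± 0.08). Lpl, which releases lipids from lipoproteins, fell with LPS (-0.77 ± 0.06) and with IL-1β (-0.39 ± 0.06). Bco2, a carotene-cleaving oxygenase gene, was lower with LPS than with IL-1β (-0.78 ± 0.16, adjusted p = 0.000818), having risen with IL-1β against control (0.50 ± 0.16). Lrat, the esterifying enzyme gene, had at most 11 counts in any library.

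Beside Cyp26b1, the breakdown gene Cyp2s1, whose human enzyme is known to oxidise retinoic acid, rose with IL-1β (0.82 ± 0.14) and stood at 0.20 ± 0.15 with LPS. LPS was lower than IL-1β by -0.63 ± 0.14 (adjusted p = 0.0012, edgeR). Cyp26c1 had at most 5 counts in any library.

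Receptor genes other than Rarb shifted little. Rarg rose by 0.20 ± 0.04 with LPS and 0.31 ± 0.04 with IL-1β. Rara rose by 0.20 ± 0.04 with IL-1β and stood at 0.02 ± 0.04 with LPS, and LPS was lower than IL-1β by -0.17 ± 0.04 (adjusted p = 0.00179, edgeR). Rxra, a partner of these receptors, fell with LPS (-0.20 ± 0.06) and was lower with LPS than with IL-1β (-0.20 ± 0.06). Rxrb did not pass in any comparison, and Ppard, a nuclear receptor that can respond to retinoic acid delivered by Fabp5, rose with IL-1β (0.20 ± 0.06) and was lower with LPS than with IL-1β (-0.16 ± 0.06). Rxrg had at most 5 counts in any library.

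Of 11 genes tested that are known elsewhere as targets of retinoic acid, 1 rose and 5 fell with LPS, and 3 rose and 3 fell with IL-1β. That is 54.5% called in each comparison, beside 42.5% of all genes with LPS and 47.7% with IL-1β. Tgm2, the transglutaminase gene, rose by 0.43 ± 0.07 with LPS and by 0.73 ± 0.07 with IL-1β. Meis1, a homeobox gene, fell with LPS (-0.40 ± 0.03) and with IL-1β (-0.56 ± 0.03), as did Rai14 (-0.25 ± 0.04 with LPS and -0.41 ± 0.04 with IL-1β) and Rarres1 (-0.75 ± 0.23 with LPS and -0.61 ± 0.23 with IL-1β). Hic1 rose with IL-1β (0.17 ± 0.07, adjusted p = 0.0485, edgeR) and fell with LPS (-0.19 ± 0.07, adjusted p = 0.042). Its level was lower with LPS than with IL-1β (-0.36 ± 0.07). Stra8, the gate to meiosis in germ cells, Hoxb1 and Cdx1 were below the low-count filter. Of 7 receptor cofactor genes, 3 rose and 1 fell with LPS (57.1% called, beside 42.5% of all genes), and 4 rose and 1 fell with IL-1β (71.4%, beside 47.7% of all genes).

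**Figure D3:**
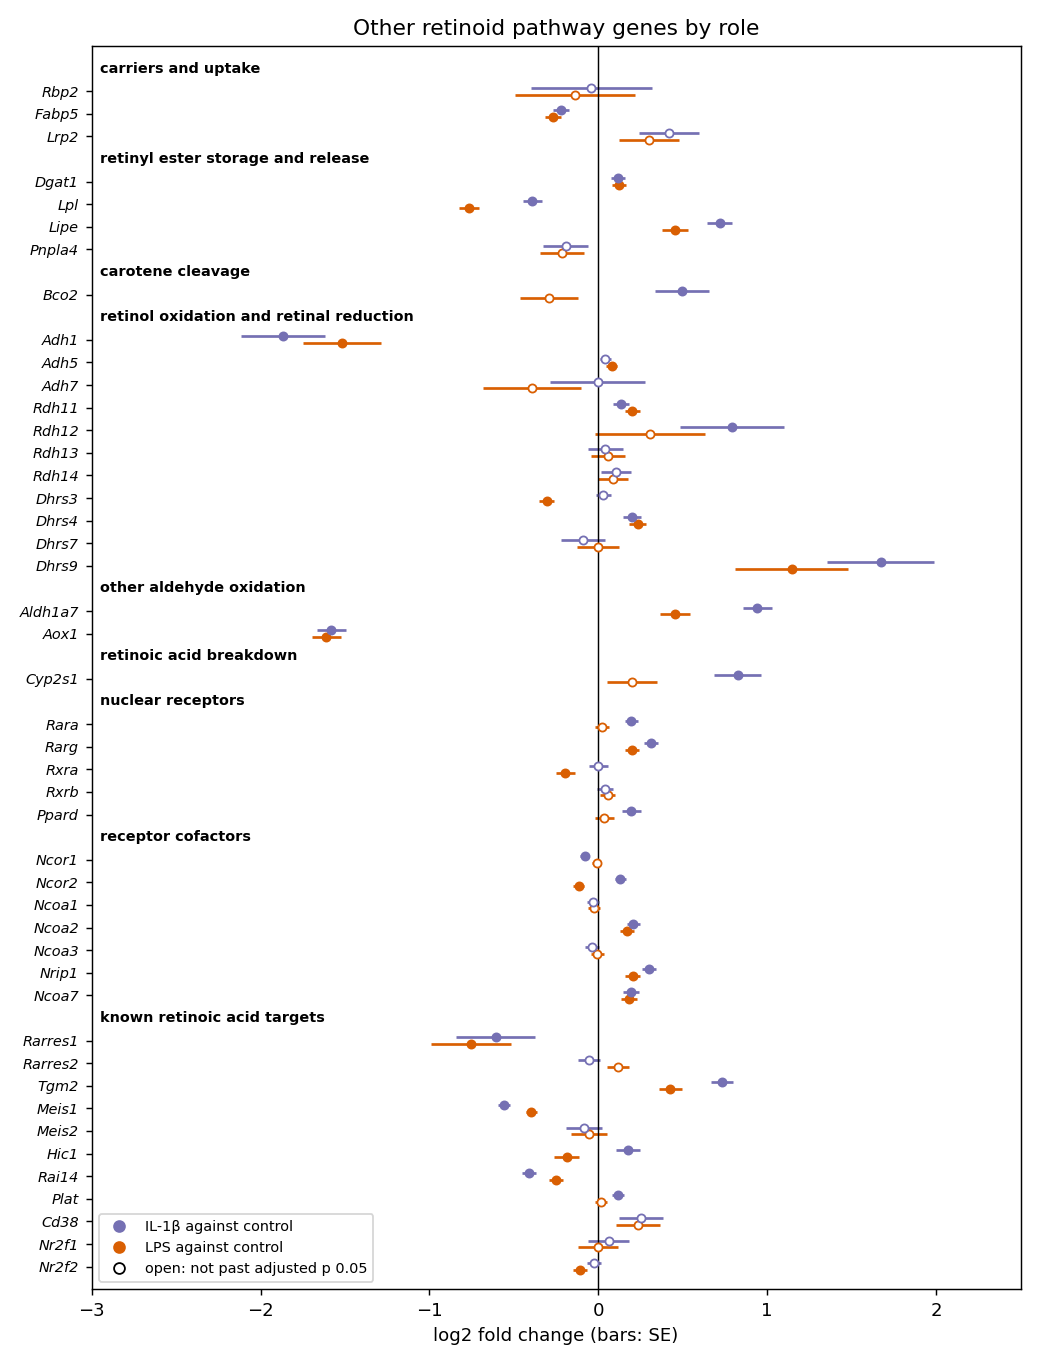
Log2 fold change with SE (horizontal axis) of other retinoid pathway genes against control, grouped by role, for IL-1β and LPS. Filled points passed an adjusted p of 0.05. Aox1 lies at -1.61 with LPS and -1.58 with IL-1β, while receptors and cofactors lie close to 0.

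For each of the 9 genes the profile over all 12 libraries was compared with those of genes of at least 2 CPM, by Pearson's r of log2 CPM, and genes among the nearest 3 are given. These r values describe points that share 3 groups and their libraries. Aldh1a1 was nearest to Adam12 (0.991), Sh3rf1 (0.990) and Npy2r (0.990). Crabp2 was nearest to Por (0.989), which encodes the electron donor of microsomal cytochromes P450, then to Prdx5 (0.982) and Igsf11 (0.981). Aldh1a2 was nearest to Jph2 (0.985), Rhpn1 (0.976) and Mt2A (0.975), and Rbp4 to Auh (0.979), Zfp52 (0.967) and Epha7 (0.963). Rdh10 was near to Msmo1 (0.967) and Cyp51 (0.965), both of which encode enzymes of cholesterol synthesis. The other 4 genes had lower r over the 12 libraries, with Eqtn for Cyp26b1 (0.938), Chtop-2 for Rarb (0.9205), Ppp4r1 for Aldh1a3 (0.903) and Mettl23 for Stra6 (0.877). With group means taken out, r for these pairs was 0.937, 0.840, 0.839 and 0.806 in that order. For the nearest genes named before them it then ran from 0.680 (Rdh10 and Msmo1) to 0.904 (Aldh1a2 and Jph2).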

How the data were processed

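The authors deposited raw read counts per gene symbol, 1 column per library, with no normalization. The rat build was Rnor_6.0, and the tools listed are DESeq2, SAMtools and TopHat2 (version 2.1.1), per the submitters' processing notes. The counting program, annotation and treatment of shared reads are not given in the sources used here. Libraries were TruSeq Stranded mRNA on a HiSeq4000, per the labels' protocols.

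Counts were analysed in R 4.3.3 with edgeR 4.0.16: filterByExpr, TMM factors and 1 quasi-likelihood model (glmQLFit, robust) of the 3 groups over all 12 libraries. Contrasts were tested two-sided, with Benjamini-Hochberg adjustment over all 17330 genes tested. SE is the log2 fold change divided by the square root of F, without sign. The procedure was tested on simulated data in which all genes shared a common spread beyond counting error. That test does not cover genes whose spread differs from the common value. Depth limits low genes: genes with few counts, such as Rbp4 and Stra6, have wide intervals.

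The 9 genes and all lists were chosen with earlier results of these data known. Pathway genes named were the 5 highest and 5 lowest called in each comparison with a mean of at least 1 CPM, and those of the carrier, breakdown and receptor steps. Adh1, Dhrs9, Lrat, Stra8, Hoxb1, Cdx1, Msln, Upk3b, Wt1, Col1a1, Star, Inha, Tagln, Emr1 and Cd163 lie outside this rule and were chosen after their values were seen. The list gene Pnpla4 was matched as RGD1562200. Some genes that the rule or the lists take in are not reported here. Alternatives were other scaling factors, filters, DESeq2 1.42.0, limma-voom from limma 3.58.1, 8-library fits, a replicate block, a stricter threshold and each library left out.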

Additional observations from a re-analysis of the deposited data

How the results depend on the processing

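No alternative lost the IL-1β calls of Aldh1a1, Aldh1a2, Rdh10, Rbp4, Crabp2 and Rarb, or the LPS calls of Aldh1a1, Aldh1a2, Rdh10, Crabp2 and Rarb, wherever the gene was tested. The filter at a mean of 2 CPM leaves out Rbp4, Stra6 and Rarb, which were then not tested. It gave 4 retinoid genes called for IL-1β against control in place of 7, beside 7423 of all genes in place of 8261. Leaving out each library gave 6 to 7 called for IL-1β against control, 5 to 7 for LPS against control and 3 to 5 for LPS against IL-1β. Over all genes those fits gave 7633 to 8459, 6628 to 7350 and 2899 to 4069 calls in that order. At an adjusted p of 0.01 the counts were 6, 5 and 3 in that order, beside 6383, 5597 and 2202 of all 17330 genes. Of 612 recomputed fold changes of the 9 genes, 6 changed sign, all in values not past the threshold and all on leaving out a library. Over those fits LPS against control ranged from -0.0563 to 0.247 for Stra6 and from -0.0001 to 0.17 for Cyp26b1, and LPS against IL-1β from -0.0969 to 0.0292 for Aldh1a2 and from -0.17 to 0.15 for Rarb. The cause was not tested.

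The main fit did not pair samples by replicate number, and the values do not settle whether the numbers pair them. Same-numbered libraries had correlations of their deviations between -0.033 and 0.12 over 12 pairs. Not every library correlated best with its own number. With the replicate block 8 retinoid genes were called for IL-1β against control, 7 for LPS against control and 4 for LPS against IL-1β, and over all genes it gave 8544, 7730 and 4256 calls in place of 8261, 7358 and 3791. Calls higher made up 51.7% of all calls for IL-1β and 53.0% for LPS with TMM, and 64.1% and 63.4% with library size alone.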
